A study of Mus musculus with 4 samples.

Results

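Sertoli cells line the seminiferous tubule and nurse the germ cells, and 10 genes that define them or carry their hormonal signals were followed here in whole testis: the transcription factor genes Wt1, Sox9, Gata4 and Nr0b1, the receptor genes Fshr and Amhr2, and the secreted factor genes Amh, Gdnf, Kitl and Clu. They were picked by name from a count table of 49492 gene rows, and all 10 were found in it. The table holds RNA sequencing of 4 testis libraries from male C57BL/6J mice in 2 groups of 2. By the labels, the first group carried a Spry1 knockdown (shSpry1) and the second a control hairpin (shControl, genotype WT), and every animal in both groups was treated with LPS, the bacterial lipopolysaccharide that activates innate immunity. The labels give no age, no dose, no route of hairpin delivery and no target cell for it, and they do not say whether the replicates were separate animals, so a p-value covers the spread between libraries alone, and that spread may be technical. Headings of 2 kinds, LPS and NC, mark the count columns, and they do not repeat the sample titles. LPS was taken for the knockdown and NC for the control hairpin, after counts of the 10 genes and of Spry1 had been seen. LPS stands in the titles of all 4 samples, so the headings may mean LPS against no LPS, and every difference below would then belong to that contrast. The groups are named by their headings, LPS columns and NC columns.

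Sertoli cells are the targets of follicle-stimulating hormone (FSH) in the testis, because their surface carries the FSH receptor, which signals through cyclic AMP. In the fetal gonad of the mouse, Sox9 acts downstream of Sry to set Sertoli identity, with Wt1, Gata4 and the nuclear receptor Nr5a1 (SF-1) as partners, and these factors switch on Amh, the hormone that removes the Müllerian ducts. Nr0b1 (DAX-1) is an X-linked orphan nuclear receptor that represses SF-1 activity. In the adult, Sertoli cells feed the germ line through GDNF, which maintains spermatogonial stem cells, and KIT ligand, which acts on differentiating spermatogonia. Several of these genes are not Sertoli-specific in the adult mouse: Amhr2, Gata4 and Nr0b1 are also used by Leydig cells, the androgen makers of the interstitium, and Clu, for the secreted chaperone clusterin, is made by many epithelia.

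Promoter windows from 250 bases before to 50 bases after the RefSeq transcription start (GRCm38.p6) were at hand for 5 of the 10 genes. The windows of Amhr2 and Nr0b1 are shown because these genes gave the one called fall and the largest called rise among the 10, and because both are known targets of SF-1, which binds the nuclear receptor half-site AGGTCA, best as AAGGTCA. Capitals mark AGGTCA, searched on both strands.
Amhr2 (chr15:102445117-102445416, plus strand): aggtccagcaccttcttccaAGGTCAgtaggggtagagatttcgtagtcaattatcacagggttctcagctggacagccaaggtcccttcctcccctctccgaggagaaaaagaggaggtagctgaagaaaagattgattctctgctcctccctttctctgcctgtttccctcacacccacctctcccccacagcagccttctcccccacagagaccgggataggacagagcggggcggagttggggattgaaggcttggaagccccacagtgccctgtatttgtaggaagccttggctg
Nr0b1 (chrX:86191525-86191824, plus strand): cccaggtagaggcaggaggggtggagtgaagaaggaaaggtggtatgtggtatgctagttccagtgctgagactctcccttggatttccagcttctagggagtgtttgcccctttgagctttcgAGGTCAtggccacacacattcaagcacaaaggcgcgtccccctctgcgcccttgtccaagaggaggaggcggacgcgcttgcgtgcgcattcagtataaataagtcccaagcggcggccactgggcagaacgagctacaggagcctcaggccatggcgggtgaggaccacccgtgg
The half-site begins at -230 from the transcription start in Amhr2 and at -126 in Nr0b1, once in each window. Of 32851 RefSeq windows of this kind in the mouse, 16.3% hold AGGTCA. The longer AAGGTCA, which contains the shorter motif, stands in the Amhr2 window and not in that of Nr0b1, and in 4.72% of all windows. TATAAA, the TATA box, begins at -32 in Nr0b1, at -31 in one of the Gdnf windows and at -25 in Kitl, and is in 13.6% of all windows. The E-box CACGTG, which binds USF factors in the Fshr promoter of rodents, begins at -61 in the Fshr window and is in 7.15% of all windows. AGGTCA was also found at -87 in one of the Gdnf windows. The GATA motif TGATAA begins at -199 on the minus strand of the Amhr2 window and is in 9.05% of all windows, and another GATA spelling, AGATAA, was found at -84 in the other Gdnf window and in 11.2% of all. AACAAT, a motif of SOX factors, is in 10.7% of all windows and in none of those at hand for these genes. A letter match is a description of the sequence and not evidence of binding.

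Libraries held 17612342 to 22451132 counts. The targeted gene Spry1 had 26 and 17 counts in the LPS columns, against 45 and 41 in the NC columns (log2 fold change -0.82 ± 0.28 SE, edgeR, Benjamini-Hochberg adjusted p = 0.0212), and its exons overlap the antisense model Gm42922. Spry1 counts were known when the headings were read, so their direction is no independent check of that reading. DESeq2 did not call Spry1 (Benjamini-Hochberg adjusted p = 0.297, the highest of a range that starts at 0.0150), nor did edgeR without LPS replicate 2, NC replicate 1 or NC replicate 2. Germ cell markers of testis were abundant: 12 elongating spermatid markers summed to 18501 and 18230 CPM in the LPS columns and 25415 and 24547 CPM in the NC columns. CPM are counts per 1000000 of TMM-scaled library size. Calls were made in edgeR's quasi-likelihood test over 20855 genes, where the adjusted p had to be under 0.05. In RNA from a whole organ, fewer cells of a type and less RNA per cell cannot be told apart.

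Of the 10 genes, 3 were called higher in the LPS columns, Sox9, Clu and Nr0b1, where 15.2% of all tested genes were higher. Amhr2 was called lower, where 16.3% of all tested genes were lower, and 6 genes were not called. All 10 passed the filter on low counts, and 4 of 10 called stands beside 31.5% of all genes called in either direction. The CPM of the groups did not overlap for 8 of the 10 genes, against 64.1% of all tested genes. The median log2 fold change of the 10 was 0.11 and that of all tested genes 0.00. The 4 calls held in all 11 alternative settings, including each fit without one library.

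**Figure D1:**
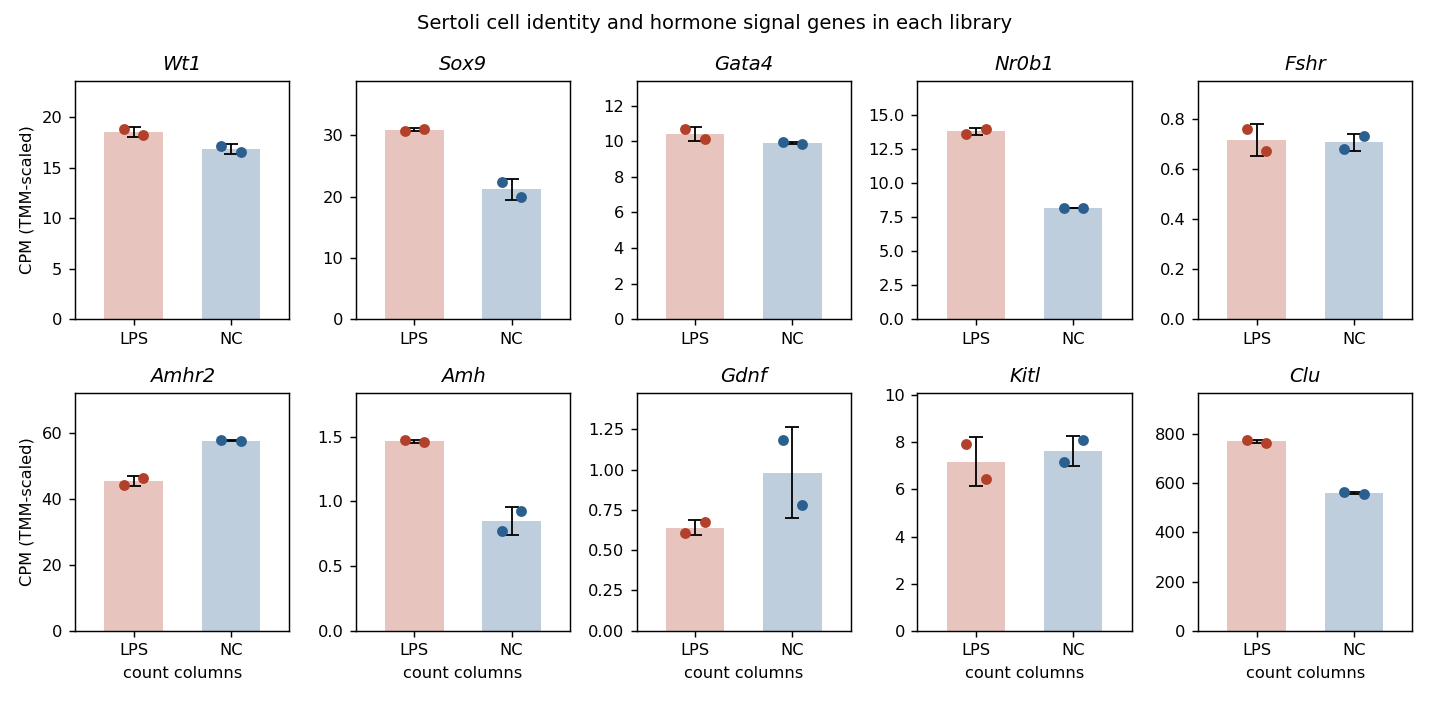
Level of each of the 10 genes in CPM (TMM-scaled, linear axes from 0) in the LPS columns, left, and the NC columns, right; points are libraries, bars group means and error bars the SD (n = 2 per group). Sox9, Nr0b1 and Clu lie higher in both LPS libraries, Amhr2 lies lower, and the libraries of the groups overlap for Fshr and Kitl.

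Among the transcription factors, Sox9 and Nr0b1 were higher while Wt1 and Gata4 were not called. Sox9 (ENSMUSG00000000567.5, chromosome 11, 112782224 to 112787760, plus strand, mm10) had 606 and 555 counts in the LPS columns, against 493 and 410 in the NC columns. That is 30.7 and 31.1 CPM in the LPS columns, against 22.4 and 20.0 CPM in the NC columns, and both LPS libraries lay above both NC libraries. Its log2 fold change was 0.54 ± 0.08 (SE, edgeR, Benjamini-Hochberg adjusted p = 3.23e-06), which is 1.46 times the NC mean.

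Nr0b1 (ENSMUSG00000025056.4, chromosome X, 86191764 to 86195947, plus strand) had 268 and 250 counts in the LPS columns, against 180 and 168 in the NC columns. In CPM these were 13.6 and 14.0 in the LPS columns, and 8.18 and 8.19 in the NC columns, so the gap between groups was far wider than that between libraries of a group. Its log2 fold change of 0.75 ± 0.11 (SE, edgeR, Benjamini-Hochberg adjusted p = 2.26e-06), or 1.69 times the NC mean, was the largest of the 4 called genes. Nr5a1, whose protein Nr0b1 represses, was also higher, with 615 and 645 counts in the LPS columns, against 471 and 493 in the NC columns (log2 fold change 0.57 ± 0.09 SE, edgeR, Benjamini-Hochberg adjusted p = 2.29e-06). The Nr0b1 level divided by the Nr5a1 level, both per length, was 1.02 and 0.909 in the LPS columns, against 0.896 and 0.799 in the NC columns.

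Wt1, the zinc finger factor that keeps Sertoli cells differentiated, had 372 and 325 counts in the LPS columns, against 378 and 339 in the NC columns. Scaled to CPM it stood at 18.9 and 18.2 in the LPS columns and at 17.2 and 16.5 in the NC columns, a log2 fold change of 0.14 with a 95% interval of -0.05 to 0.33. Gata4, a zinc finger factor of the somatic gonad, had 211 and 181 counts in the LPS columns, against 219 and 202 in the NC columns. Its CPM were 10.7 and 10.1 in the LPS columns, against 9.95 and 9.84 in the NC columns, with a log2 fold change of 0.08 and an interval of -0.16 to 0.31. For both genes the libraries of the groups did not overlap, but the step was small and neither passed the test (edgeR, Benjamini-Hochberg adjusted p = 0.287 for Wt1 and 0.673 for Gata4). Set against each other within a library, the Sox9 level was 2.44 and 2.56 times the Wt1 level per length in the LPS columns, against 1.95 and 1.81 times in the NC columns.

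Of 25 tested other genes of gonadal sex determination, 36.0% were called, against 31.5% of all genes. They gave 8 higher, 1 lower and 16 not called, with a median log2 fold change of 0.05. The one that fell was Zfpm2 (FOG2), the cofactor of GATA4, with 197 and 155 counts in the LPS columns, against 261 and 281 in the NC columns (log2 fold change -0.45 ± 0.12 SE, edgeR, Benjamini-Hochberg adjusted p = 0.00333). DESeq2 did not call it (Benjamini-Hochberg adjusted p = 0.0997), nor did edgeR without LPS replicate 2 (0.0535) or NC replicate 2 (0.0699), and the lowest value over the alternatives was 0.00100. Sox8, a close relative of Sox9, was not called, at 404 and 333 counts in the LPS columns and 473 and 394 in the NC columns (log2 fold change -0.06 ± 0.09 SE, and 0.01 with library size as the only scaling). Dmrt1, a transcription factor of Sertoli cells and spermatogonia named in the series title, was not called either (log2 fold change -0.07 ± 0.11 SE, edgeR, Benjamini-Hochberg adjusted p = 0.667).

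**Figure D2:**
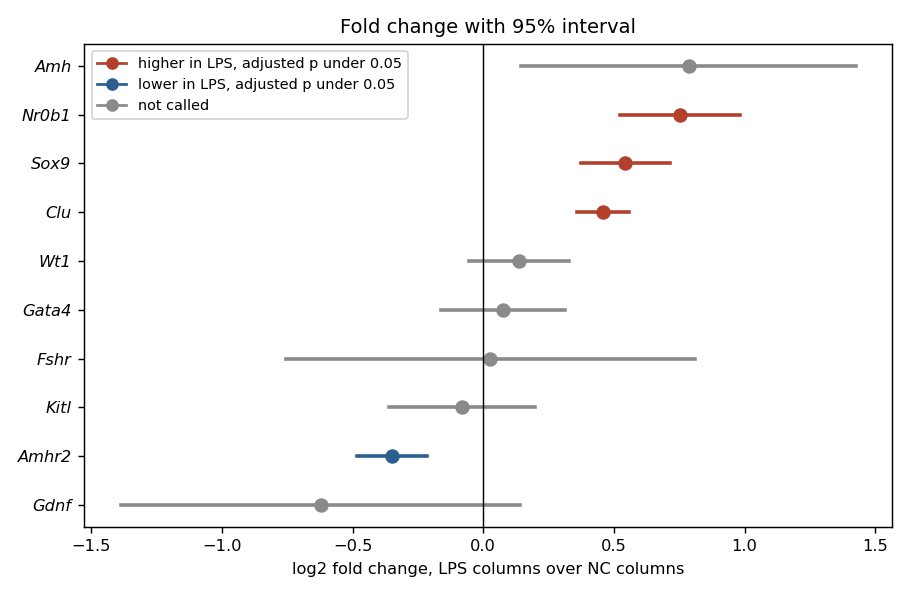
log2 fold change of each gene, LPS columns over NC columns, with its 95% interval from edgeR's quasi-likelihood fit; red and blue mark genes called higher and lower at an adjusted p under 0.05, grey those not called. Nr0b1, Sox9 and Clu lie clear of 0 on the higher side and Amhr2 on the lower side, while the intervals of Fshr, Gdnf and Amh are wide.

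Of the receptors, Amhr2 was lower and Fshr gave no detectable difference. Amhr2 (ENSMUSG00000023047.11, chromosome 15, 102445367 to 102454630, plus strand), which encodes the type II receptor of anti-Müllerian hormone, had 873 and 829 counts in the LPS columns, against 1273 and 1184 in the NC columns. Its levels of 44.3 and 46.4 CPM in the LPS columns lay below 57.8 and 57.7 CPM in the NC columns, without overlap. The log2 fold change was -0.35 ± 0.07 (SE, edgeR, Benjamini-Hochberg adjusted p = 8.33e-05), or 0.785 of the NC mean. Leydig cell markers moved the same way: 8 of 12 were lower, 2 (Nr5a1 and Cyp11a1) higher and 2 not called, where 16.3% of all tested genes were lower. Their summed level was 531 and 610 CPM in the LPS columns, against 983 and 1024 CPM in the NC columns. Cyp17a1, an enzyme of androgen synthesis, fell by 2.46 ± 0.07 (log2, SE), while the Leydig hormone gene Insl3 was not called (log2 fold change -0.07 ± 0.06 SE). The part of Leydig cells in the Amhr2 result was not tested, and the same holds for Gata4 and Nr0b1.

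Fshr (ENSMUSG00000032937.5, chromosome 17, 88985170 to 89200612, minus strand) was read from 15 and 12 counts in the LPS columns and 15 and 15 in the NC columns. In CPM it was 0.761 and 0.672 in the LPS columns, against 0.682 and 0.731 in the NC columns, and the libraries of the groups overlapped. Its log2 fold change of 0.03 had a 95% interval of -0.76 to 0.81, so at this depth a change as large as that of Nr0b1 in either direction was not excluded. Down the same pathway, 32 tested genes of FSH receptor and cyclic AMP signalling gave 7 higher, 9 lower and 16 not called. Their median log2 fold change was 0.06. Over all tested genes, the shares were 15.2% higher and 16.3% lower. The cyclic AMP phosphodiesterase genes Pde4a, Pde4b and Pde4d were all lower, at log2 fold changes of -0.26 ± 0.07, -0.43 ± 0.12 and -0.59 ± 0.23 (SE), and they are named here after their values were seen. Pde4a held in every alternative, but the call of Pde4b was lost with DESeq2, without LPS replicate 2 and without NC replicate 1, and that of Pde4d with library size only, with no filter on low counts, with DESeq2, with limma-voom and whichever library was left out. Rgs2, a brake on G protein signalling, had the largest change of that list, with 381 and 297 counts in the LPS columns, against 124 and 161 in the NC columns (log2 fold change 1.42 ± 0.13 SE).

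Of 26 tested genes listed as responsive to FSH in Sertoli cells, 7 were higher, 6 lower and 13 not called. Their median log2 fold change was -0.00, where 31.5% of all tested genes were called in either direction. The list does not separate genes that FSH raises from those it lowers, so a direction of FSH signalling was not tested. The early response genes led the rises: Fos had 34 and 29 counts in the LPS columns, against 4 and 9 in the NC columns (log2 fold change 2.43 ± 0.40 SE, and 3.16 without NC replicate 2). Junb had 352 and 322 counts in the LPS columns, against 110 and 100 in the NC columns (1.86 ± 0.12), and it shares exon sequence with Prdx2 on the other strand. Both respond to many signals besides FSH, and other cells of the testis express them. The inhibin alpha gene Inha, a classical FSH target, was called higher by little, at 51.0 ± 3.71 CPM in the LPS columns and 44.3 ± 1.66 CPM in the NC columns (SD, n = 2 per group; log2 fold change 0.20 ± 0.07 SE, edgeR, Benjamini-Hochberg adjusted p = 0.0269). It did not pass with DESeq2 (adjusted p = 0.185), when scaled by other Sertoli cell genes (0.0903), without LPS replicate 2 (0.306) and without NC replicate 1 (0.177), all Benjamini-Hochberg adjusted. The beta subunit gene Inhbb was not called (log2 fold change -0.11 ± 0.08 SE), and Inhba, at 4 and 5 counts in the LPS columns and 3 and 4 in the NC columns, was too low to be tested.

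Clusterin was the most abundant of the secreted factors and was higher. Clu (ENSMUSG00000022037.15, chromosome 14, 65968483 to 65981548, plus strand) had 15256 and 13656 counts in the LPS columns, against 12399 and 11420 in the NC columns. That made 774 and 765 CPM in the LPS columns, against 563 and 557 CPM in the NC columns, and the groups were well apart. Its log2 fold change was 0.46 ± 0.05 (SE, edgeR, Benjamini-Hochberg adjusted p = 2.52e-09), or 1.37 times the NC mean. Clu alone supplied 85.7% and 85.6% of the counts of the 10 genes in the LPS columns, and 81.8% and 81.9% in the NC columns.

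Among 10 tested receptors and partners of clusterin, 1 was higher, 3 were lower and 6 were not called, or 40.0% called against 31.5% of all genes. Lrp2 (megalin), an endocytic receptor for clusterin, had 15 and 14 counts in the LPS columns, against 61 and 79 in the NC columns (log2 fold change -2.09 ± 0.28 SE). Apoe, another lipid carrier of the tissue, stood at 106 ± 4.10 CPM in the LPS columns and 222 ± 9.62 CPM in the NC columns (SD, n = 2 per group; log2 fold change -1.08 ± 0.06 SE). Lrp8, the third that was lower, is a receptor of the same family (log2 fold change -0.69 ± 0.07 SE), and the one that was higher was Xrcc6, for the DNA repair protein Ku70 (0.19 ± 0.06). The Xrcc6 call did not hold with DESeq2, when scaled by other Sertoli genes, without LPS replicate 1 or without NC replicate 2 (adjusted p up to 0.236).

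Amh had the highest estimate of the 10 but was not called. Amh (ENSMUSG00000035262.5, chromosome 10, 80805248 to 80807648, plus strand) had 29 and 26 counts in the LPS columns, against 17 and 19 in the NC columns. Its 1.47 and 1.46 CPM in the LPS columns lay above 0.773 and 0.926 CPM in the NC columns, and the groups did not overlap. The log2 fold change was 0.79 ± 0.32 (SE), with a 95% interval of 0.15 to 1.42 before adjustment and an adjusted p just over the threshold (edgeR, Benjamini-Hochberg adjusted p = 0.0545). It passed with library size as the only scaling (0.0369) and with replicate number as a block (0.0498), and its adjusted p ranged from 0.0369 to 0.428 over all alternatives. The Amhr2 level divided by the Amh level, both per length, was 25.0 and 26.5 in the LPS columns, against 62.3 and 51.8 in the NC columns.

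The AMH signal runs through type I receptors and SMAD proteins shared with the bone morphogenetic proteins. Of 18 tested genes of that pathway, 3 were higher, 2 lower and 13 not called, with a median log2 fold change of 0.01. That is 27.8% called, against 31.5% of all genes. The type I receptor gene Bmpr1a had 211 and 181 counts in the LPS columns, against 159 and 156 in the NC columns (log2 fold change 0.49 ± 0.12 SE, edgeR, Benjamini-Hochberg adjusted p = 0.00211). DESeq2 alone of the alternatives did not call it (Benjamini-Hochberg adjusted p = 0.0858), and its exons overlap an antisense gene model, Gm17110. Acvr1, another type I receptor gene, was not called (log2 fold change 0.23 ± 0.18 SE), and Bmpr1b, at 10 and 1 counts in the LPS columns and 6 and 7 in the NC columns, was too low to be tested. Pcsk6, a proprotein convertase gene, had 30 and 24 counts in the LPS columns, against 179 and 178 in the NC columns, the largest change of the list (log2 fold change -2.54 ± 0.19 SE), and its exons overlap the gene model Gm45213 on the same strand. The target gene Id3 had 28 and 20 counts in the LPS columns, against 15 and 10 in the NC columns (1.11 ± 0.36), a call lost with DESeq2 and without LPS replicate 1 or NC replicate 2. The common mediator gene Smad4 was lower (log2 fold change -0.50 ± 0.13 SE), but not with DESeq2 (Benjamini-Hochberg adjusted p = 0.100) or without NC replicate 1 (edgeR, 0.0751). The remaining member that was higher was the type II receptor gene Bmpr2.

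The niche factors Gdnf and Kitl were not called. Gdnf (ENSMUSG00000022144.4, chromosome 15, 7811011 to 7837575, plus strand) had 12 and 12 counts in the LPS columns, against 26 and 16 in the NC columns. In CPM it was 0.609 and 0.672 in the LPS columns, against 1.18 and 0.780 in the NC columns, so both LPS libraries were lower, but the NC libraries lay far apart. Its log2 fold change of -0.62 had a 95% interval of -1.39 to 0.14, and NC replicate 1 carried much of it: without that library the value was -0.28. Its receptor genes on spermatogonia were not called either: Gfra1 had 39 and 32 counts in the LPS columns, against 45 and 45 in the NC columns, and Ret had 20 and 16 in the LPS columns, against 28 and 28 in the NC columns. In the list of GDNF receptor and target genes, 25.0% of 16 tested were called, against 31.5% of all genes. There, 2 were higher, 2 lower and 12 not called, with a median log2 fold change of 0.08. Etv5, a target of GDNF in spermatogonia, was among those lower (log2 fold change -0.43 ± 0.13 SE), with the adhesion receptor gene Ncam1 (-0.23 ± 0.08), while Zbtb16 (0.53 ± 0.17) and Id4 (0.23 ± 0.08), markers of undifferentiated spermatogonia, were higher. None of these 4 held with DESeq2, without LPS replicate 2 or without NC replicate 1, and Ncam1 and Id4 failed without either other library as well. Ncam1 was also lost with library size only (adjusted p = 0.106) and Id4 when scaled by other Sertoli genes (adjusted p = 0.0998).

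Kitl (ENSMUSG00000019966.18, chromosome 10, 100015630 to 100100413, plus strand) had 156 and 115 counts in the LPS columns, against 158 and 166 in the NC columns. These were 7.91 and 6.44 CPM in the LPS columns and 7.18 and 8.09 CPM in the NC columns, and the groups overlapped. The log2 fold change of -0.08 had a 95% interval of -0.36 to 0.20, which does not reach a change as large as that of Nr0b1. That interval covers the spread between libraries alone. Gene counts do not separate the membrane-bound form of KIT ligand from the soluble one. Kit, the receptor gene on differentiating spermatogonia and Leydig cells, had 318 and 275 counts in the LPS columns, against 246 and 260 in the NC columns (log2 fold change 0.41 ± 0.11 SE, edgeR, Benjamini-Hochberg adjusted p = 0.00290). DESeq2 did not call it (Benjamini-Hochberg adjusted p = 0.0867), nor did edgeR without NC replicate 1 (0.0615), and the lowest value over the alternatives was 0.000968. Of 21 tested genes of KIT signalling, 3 were higher, 2 lower and 16 not called, with a median log2 fold change of -0.02. The called share of this list was 23.8%, below the 31.5% of all tested genes. The change of at least 1 was that of the kinase gene Lyn (log2 fold change 1.20 ± 0.24 SE), which immune cells also express. Its counts were 57 and 55 in the LPS columns, against 30 and 25 in the NC columns.

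Per kilobase of exon, the 10 genes differed widely in level. Mean levels over the 4 libraries were 193 CPM per kilobase for Clu, 25.8 for Amhr2, 6.30 for Sox9, 6.08 for Nr0b1, 2.86 for Wt1, 2.60 for Gata4, 1.28 for Kitl, 0.694 for Amh, 0.342 for Fshr and 0.231 for Gdnf. Neighbours whose ranges over the libraries overlapped were Sox9 and Nr0b1, Wt1 and Gata4, and Fshr and Gdnf, and the other neighbours stood apart. Amh, Fshr and Gdnf had under 50 counts in every library, which is why their intervals are the widest.

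**Figure D3:**
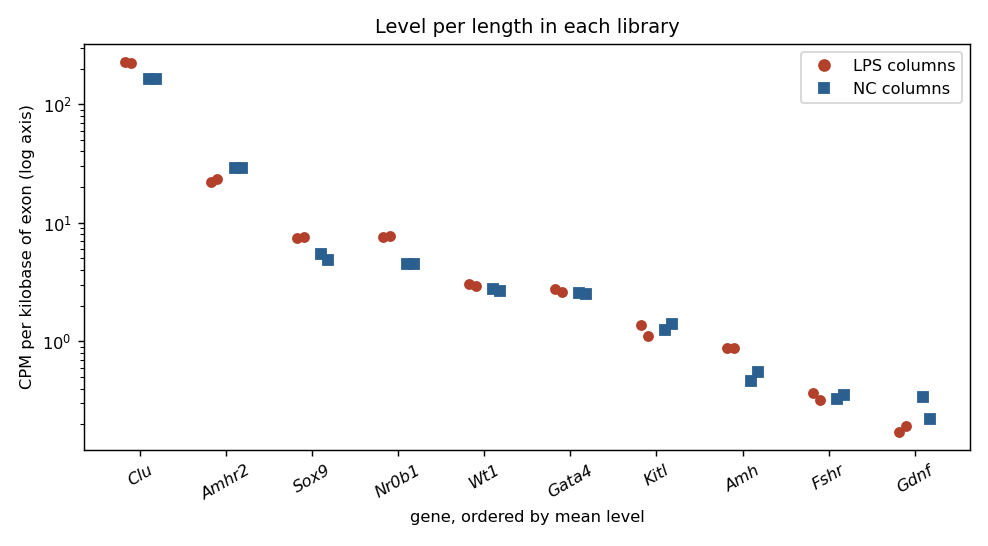
Level of each gene as CPM per kilobase of exon on a log axis, with circles for the 2 LPS libraries and squares for the 2 NC libraries; genes run from the highest mean, Clu at 193, to the lowest, Gdnf at 0.231. Nr0b1 lies above Sox9 in both LPS libraries and below it in both NC libraries, while Wt1 lies above Gata4 in all 4 libraries although their ranges overlap.

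Among other genes typical of Sertoli cells, more were higher than lower. Of 36 tested, 18 were higher, 3 lower and 15 not called, or 58.3% called against 31.5% of all genes, and the median log2 fold change was 0.26. Their summed level nevertheless differed little, at 1932 and 1930 CPM in the LPS columns and 1848 and 1922 CPM in the NC columns, and Aldh1a1, the most abundant of them and a gene that Leydig cells share, fell (log2 fold change -0.62 ± 0.06 SE). The other genes that fell were Espn, for an actin bundler of Sertoli junctions (-0.46 ± 0.06), and Trf, the iron carrier transferrin (-0.47 ± 0.17), whose exons overlap Gm20425. The Trf call did not hold with library size only, with DESeq2, without LPS replicate 2 or without NC replicate 2 (adjusted p up to 0.325). The cystatin gene Cst9 changed most, with 583 and 433 counts in the LPS columns, against 116 and 86 in the NC columns (log2 fold change 2.51 ± 0.12 SE). Abca1, for a cholesterol exporter that macrophages make too, was at 871 and 946 counts in the LPS columns, against 344 and 342 in the NC columns (1.59 ± 0.09). The glutamine transporter gene Slc38a5 had 85 and 74 counts in the LPS columns, against 52 and 35 in the NC columns (1.05 ± 0.21). Hsd17b1, an oestrogen-forming enzyme gene, was called from 13 and 11 counts in the LPS columns, against 1 and 6 in the NC columns. That call did not hold without LPS replicate 1, LPS replicate 2 or NC replicate 1 and with DESeq2, and its log2 fold change of 1.92 ± 0.58 (SE) became 1.12 in the fit that left out NC replicate 1 and 3.64 in the one that left out NC replicate 2.

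Scaling each library by the summed counts of those other Sertoli genes, in place of TMM, moved the median of all genes by only -0.04 on the log2 scale. That sum, with Aldh1a1 as its most abundant part, is no measure of change relative to a typical Sertoli gene. Under it Sox9 was at a log2 fold change of 0.51 ± 0.09, Clu at 0.42 ± 0.05, Nr0b1 at 0.72 ± 0.12 and Amhr2 at -0.39 ± 0.07 (SE), and Amh remained uncalled at 0.75 ± 0.32 (edgeR, Benjamini-Hochberg adjusted p = 0.0706). Set beside the median of 0.26 of those 36 genes, the TMM-scaled values of Sox9 (0.54), Clu (0.46) and Nr0b1 (0.75) lay above it and that of Amhr2 (-0.35) below it. Of the uncalled genes, Amh (0.79) lay above it, and Wt1 (0.14), Gata4 (0.08), Fshr (0.03), Kitl (-0.08) and Gdnf (-0.62) below it. Genes called for a rise tend to lie above a small median by their selection, and the comparison was not tested.

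Markers of other testis cells were set beside the Sertoli genes, and some lists moved while others did not. Of all tested genes, 15.2% were higher and 16.3% lower, with a median log2 fold change of 0.00. Elongating spermatid markers had 8 of 12 lower and 0 higher, with a median log2 fold change of -0.29, and round spermatid markers had 6 of 10 lower and 1 higher (-0.17). Spermatocyte markers had 3 of 12 higher and 2 lower (-0.01), and spermatogonia markers 4 of 11 higher and 2 lower (0.03). Peritubular myoid markers had 6 of 10 higher and 1 lower (0.47), endothelial markers 4 of 8 higher and 1 lower (0.48), and macrophage and monocyte markers 8 of 13 higher and 3 lower (0.81). The summed macrophage level was 112 and 125 CPM in the LPS columns, against 67.1 and 74.9 CPM in the NC columns. Itgam led the rises (2.68 ± 0.18), and Adgre1, Lyz2, Ptprc, Mpeg1, C1qa, C1qb and C1qc were higher too. Csf1r, Mrc1 and Cd163 were the 3 called lower, so the list did not move as one. Epididymis and rete markers had 0 of 6 tested higher and 1 lower, or 16.7% called against 31.5% of all genes. The part of these shifts in cell markers in the values of Sox9, Clu and Nr0b1 was not tested.

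**Figure D4:**
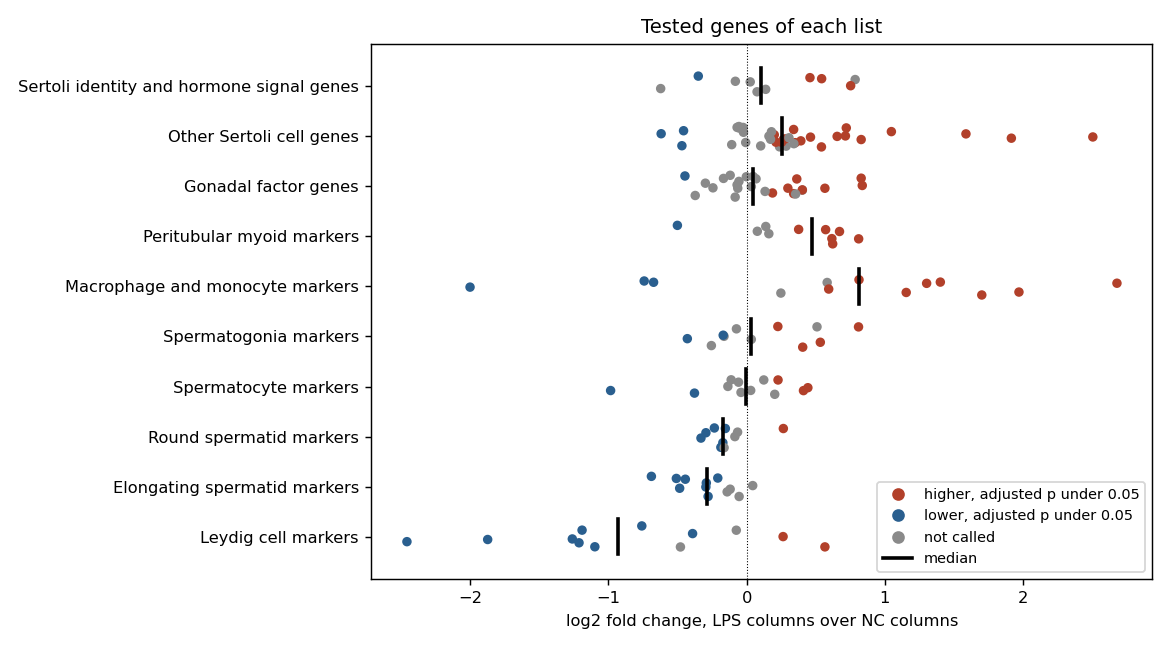
log2 fold change, LPS columns over NC columns, of each tested gene in 10 lists, with points red if called higher, blue if called lower, grey if not called, and a black bar at the median of the list; vertical scatter within a row carries no value. The Sertoli lists have medians of 0.11 and 0.26, the Leydig list lies lowest at -0.93 and the macrophage list highest at 0.81.

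Among the 10 genes, the pair with the most similar pattern over the 4 libraries was Wt1 and Gata4, at a root mean square distance of 0.04 between log2 CPM profiles, each centred on its own mean. Among the 4 called genes the nearest pair was Sox9 and Clu, at 0.07. Over 12301 genes with a mean of at least 5 CPM, the nearest to Sox9 were Peg3 and Krit1, to Clu Crispld2 and Mlh3, to Nr0b1 Cald1 and Chp2, and to Amhr2 Nrd1 and 4930549C01Rik, all within 0.02. The nearest to Amh was Rhox5, a homeobox gene of Sertoli cells, at 0.04, with 655 and 578 counts in the LPS columns and 393 and 452 in the NC columns (log2 fold change 0.72 ± 0.09 SE). Nearest to Wt1 was Ppp1cb, to Gata4 Hopx, to Kitl Gm9769 and to Fshr Nfkbil1, all within 0.01, and to Gdnf Nlrc5, at 0.07. With 4 libraries in 2 groups many genes share a pattern by arithmetic alone, so these are descriptions.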

How the data were processed

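Gene expression was measured by RNA sequencing of whole testis in 4 libraries, 2 per group. The deposited table gives raw counts of reads for each gene beside its exon length, under the headers that featureCounts writes, per the file headers. The submitters' processing notes name build mm10, STAR 2.5.3a, Subread 1.5.1 with featureCounts, Trimmomatic 0.36, DESeq and edgeR 3.12.1, without roles or order. Not given in the sources used here are the annotation release, the strand setting and whether molecular identifiers were counted, so reads of overlapping genes cannot be assigned with certainty. None of the 10 genes shares exon bases with another gene of the table. Besides the overlaps named above, exons of Insl3 overlap Jak3, those of Cyp11a1 Gm17322 and those of Itgam RP23-144N15.3, all on the same strand. Exons of Gfra1, Id4, Ncam1, Lyn, Xrcc6 and Csf1r overlap a gene on the opposite strand. Per the labels' protocols, RNA was extracted with TRIzol and libraries were made with a stranded mRNA kit.

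Coordinates are those of the deposited table (mm10), and gene identifiers were matched by symbol and chromosome to GENCODE mouse release M21, in which 4 of the 10 genes have the same ends. Genes were filtered with filterByExpr, scaled by TMM and compared with edgeR 4.0.16 (quasi-likelihood test, Benjamini-Hochberg adjustment over all tested genes, group as the only term). Residual degrees of freedom were 2 and prior ones 34. Standard errors and 95% intervals are those implied by the F statistic. Chi-square per degree of freedom between replicates was 2.31 in the LPS columns and 2.20 in the NC columns, so both pairs differed by more than sampling noise. A count of 0 allows 0.134 to 0.170 CPM, taking 3 counts as the floor, for counting error only. The method was tested on simulated data.

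Alternatives were DESeq2 1.42.0, limma-voom (limma 3.58.1), other scalings, no filter, each library left out, and replicate number as a block. The genes, the lists and the tests were chosen with earlier results of these data known. All 10 genes are named. From the other lists, called genes whose log2 fold change was 1 or more in size are named, at most 4 a list by adjusted p, with fixed receptors, ligands and partners. Others were named after their values were seen.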

Additional observations from a re-analysis of the deposited data

How the results depend on the processing

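The calls of Sox9, Clu, Nr0b1 and Amhr2 kept their direction and passed the test in all 11 alternatives. Their log2 fold changes ranged from 0.47 to 0.64 for Sox9, 0.42 to 0.52 for Clu, 0.72 to 0.82 for Nr0b1 and -0.39 to -0.29 for Amhr2. Between 3 and 4 of the 10 genes were called higher and 1 lower under every alternative, the fourth being Amh with library size as the only scaling (0.85) and with the replicate block (0.79). Of genes not called, the sign of Fshr turned when scaled by other Sertoli cell genes (-0.01) and with libraries left out (-0.07 to 0.11), that of Kitl with libraries left out (-0.24 to 0.06), that of Sox8 with library size only (0.01) and with libraries left out (-0.13 to 0.04), and that of Insl3 with libraries left out (-0.14 to 0.01). Over all genes DESeq2 called 1370 higher and 1747 lower, against 3169 and 3394 in the edgeR test, and leaving out a library gave 2255 to 2730 higher and 2425 to 2962 lower. With library size only, 62.0% of calls were higher, against 48.3% with TMM. With replicate number as a block, 3376 genes were higher and 3594 lower. Same-numbered libraries did not deviate together (correlation 0.02), and the labels do not say that a number pairs them. A lone library left in a group is assumed to vary like the other group. Depth limits Fshr, Amh and Gdnf, which had under 50 counts in every library.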
